A study of Mus musculus with 9 samples.

Results

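The genes described here encode the machinery of mitosis, namely its kinases, the kinetochore, the spindle, the kinesin motors, condensin and the proteins that separate sister chromatids. The list held 60 genes, taken by name. Each was read from the probe set that carried no other gene symbol and, where a gene had several such probe sets, from the brightest on average. All 60 were among the 18194 genes with a probe set of their own, and 59 passed the filter on low values together with 10805 other genes. RNA came from the olfactory bulb of CD1 mice, the forebrain structure that receives the axons of the nose, dissected on each day of gestation between E11 and E18 and on the day of birth, P0. At each age 1 animal gave 1 Affymetrix array of amplified RNA, so that no age had a replicate. The labels name no treatment and no genotype beyond the CD1 strain, which is the same at all 9 ages. The error of every trend below is therefore the scatter of 9 animals around a line. The deposited values are log2 expression levels made by the authors with GCRMA, and a difference of 1 is a 2-fold difference.

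In mitosis the cyclin-dependent kinase Cdk1, with its cyclins, drives the cell into division, and the kinetochores of each chromosome attach to spindle microtubules. The spindle checkpoint holds back the anaphase-promoting complex until attachment is complete, after which Cdc20 activates that complex, securin and cyclins are destroyed and separase opens the cohesin rings. Most of these genes are transcribed late in the cell cycle and are silent in cells that have left it. In the embryonic bulb the dividing cells are mainly radial glia and intermediate progenitors, while mitral cells, tufted cells and interneurons no longer divide.

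All 59 tested members fell with age. A linear model of the log2 level on age in days (limma with moderated variance, two-sided, p adjusted by Benjamini-Hochberg over 10864 genes, threshold 0.05) called 59 of 59 as falling and 0 as rising, against 21.9% of all genes tested called as falling and 25.2% as rising. The median slope of the members was -0.38 log2 units per day, a fitted change of -3.02 over the 8 days, and the median slope of all genes tested was 0.0020. The median level of the tested members was 10.90 at E11, 10.34 at E12, 9.67 at E13, 9.48 at E14, 9.04 at E15, 8.98 at E16, 8.55 at E17, 8.07 at E18 and 7.60 at P0. On the same arrays the median of all genes tested stayed between 8.55 and 8.72. Every tested member read lower at P0 than at E11, by 2.61-fold (Bub3) to 25.0-fold (Ttk), with a median of 8.81-fold on readings under log2 5 set to 5. The highest reading was the one at E11 for 57 members and at E12 for 2, Ncapd2 and Kif22. The lowest reading was the one at P0 for 53 members, at E18 for 4, at E17 for Kifc1 and at E16 for Cdca3. All 59 stood among the 1000 steepest falls of the table, and 14 among the 100 steepest. In whole tissue, fewer dividing cells and less of these messengers per dividing cell cannot be told apart.

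**Figure D1:**
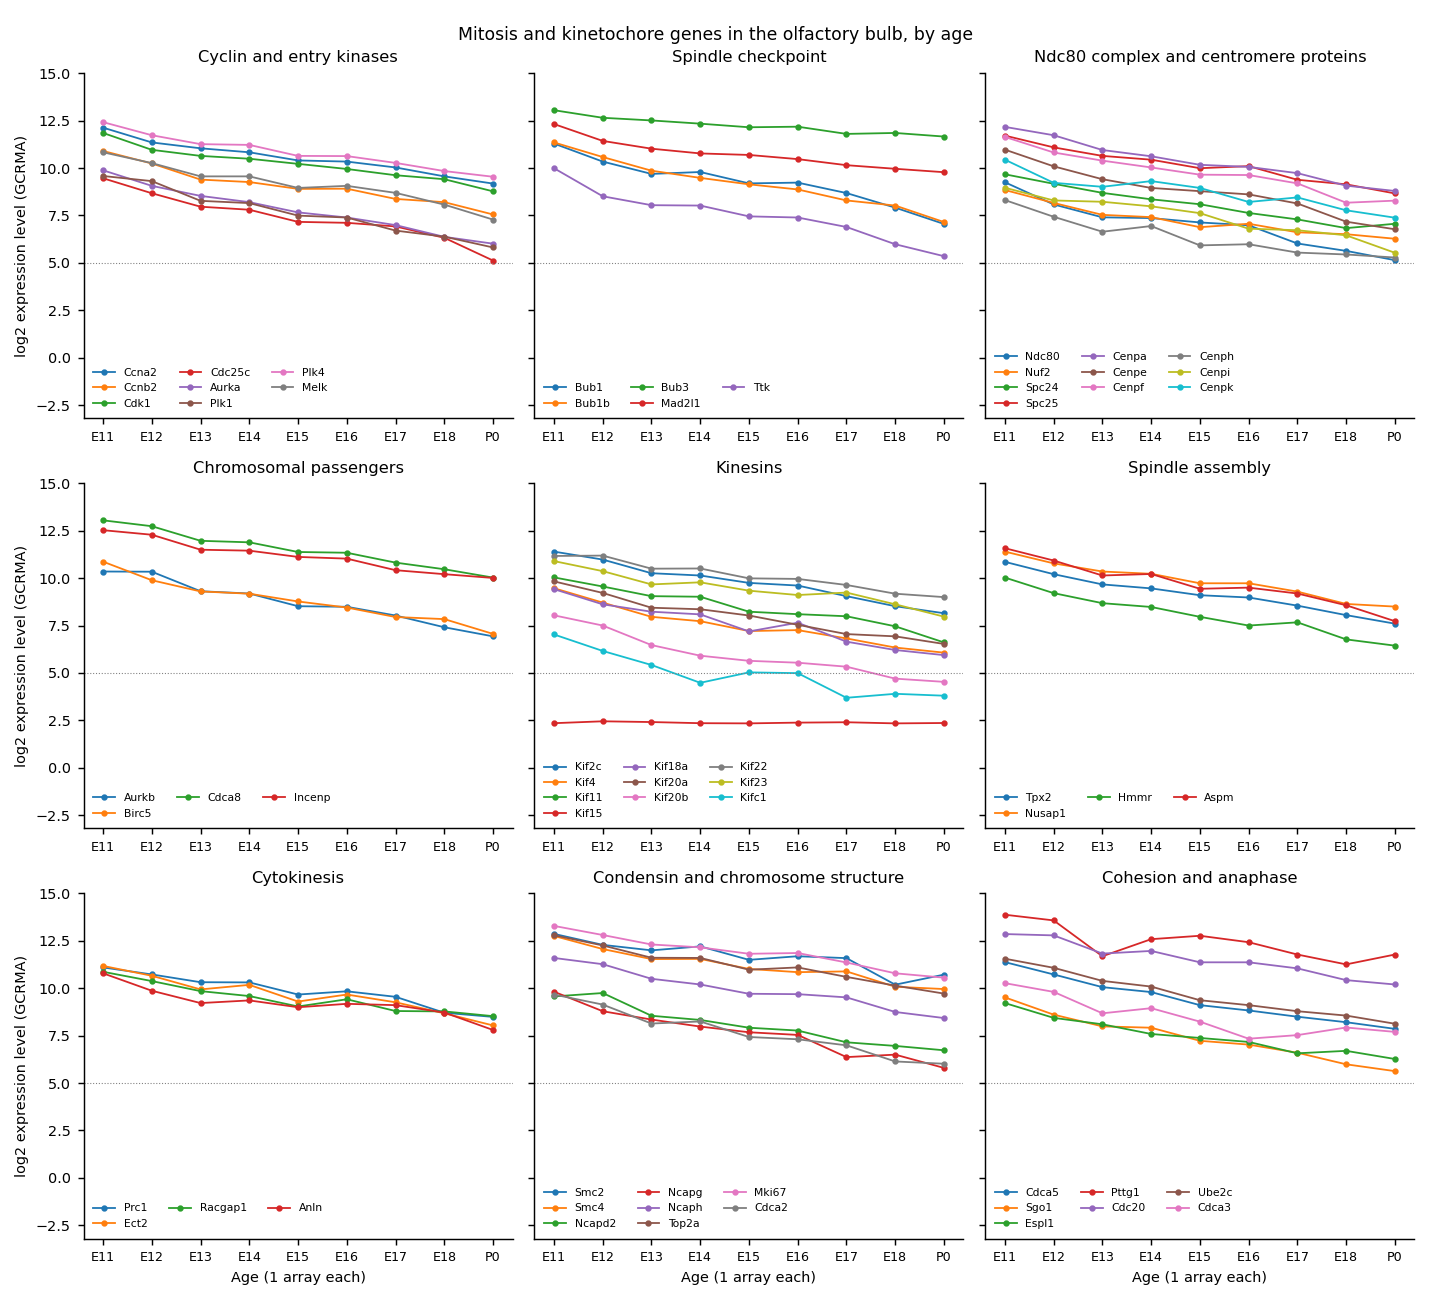
Log2 expression level (GCRMA) of the 60 members at each age, 1 array per age, in panels by role. The dotted line marks log2 5, the level of the filter on low values. Apart from Kif15, which stays between 2.34 and 2.45, every line ends lower at P0 than it began at E11.

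Kif15, a kinesin that helps to keep the spindle bipolar, was the 1 member that did not pass the filter, and its only probe set read 2.35 at E11, 2.45 at E12, 2.41 at E13, 2.35 at E14, 2.34 at E15, 2.38 at E16, 2.40 at E17, 2.34 at E18 and 2.36 at P0. These readings lay near the floor of the table on every array and show neither a change nor its absence. For 41 members the platform had more than 1 probe set. Of the 50 further probe sets of tested members that passed the filter, all 50 had a negative slope and 49 fell in a fit over all probe sets. The exception was a dim probe set of Cenpa, with a slope of -0.10 ± 0.13. The order of slopes given below, within roles and over all members, is that of the brightest probe set of each gene.

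The promoters of these genes were compared for sequence letters, since genes of mitosis share promoter elements in mammals. The CHR (cell cycle genes homology region, TTTGAA) binds the MuvB core of the DREAM and B-Myb complexes, and the CCAAT box binds NF-Y. RefSeq windows of the build GRCm38.p6, from 250 bases before to 50 after the transcript start, matched 51 of the 60 members. TTTGAA or its reverse complement TTCAAA was present in 36 of the 51 windows (70.6%), against 18.1% of 27025 windows of all genes, taking 1 per gene. CCAAT or ATTGG was present in 36 (70.6%), against 37.9% of all genes. Both stood in 30 of the 51 (58.8%), against 7.12% of all genes. In a further list of mitosis genes with 61 windows, CHR letters were present in 45.9%, CCAAT letters in 68.9% and both in 36.1%. Among 42 genes of DNA replication, TTTGAA was present in 6 (14.3%) and CCAAT in 24 (57.1%). Of the E2F-type strings, GGCGGGAA or TTCCCGCC stood in 1 member (1.96%) and in 2.24% of all genes. It stood in 7 genes of the further mitosis list (11.5%) and in 8 DNA replication genes (19%). The other string, TTTGGCGC or GCGCCAAA, stood in 3 members (5.88%) and in 0.537% of all genes. It stood in 4 genes of the further mitosis list (6.56%) and in 6 DNA replication genes (14.3%). A match is a string of letters and no evidence of binding.

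The 120 bases before the transcript start are shown for 8 members on the strand of the gene, with CHR and CCAAT letters of either orientation in capitals. Cdk1, Cdc20, Ube2c, Kif11 and Espl1 show the pair of elements close to the start. Ncapg shows a CHR with no CCAAT letters in these 120 bases, its CCAAT match beginning at -176. Mki67 carries 2 CHR matches farther upstream of the start used. Where several promoters were listed, as for 4 members, the first was taken. The annotated genes of Mki67 (at 135716450), Espl1, Ncapg and Bub3 begin inside their windows, so positions hold for the start used. Bub3 is shown because it holds both elements and had the shallowest slope of all members.
Cdk1: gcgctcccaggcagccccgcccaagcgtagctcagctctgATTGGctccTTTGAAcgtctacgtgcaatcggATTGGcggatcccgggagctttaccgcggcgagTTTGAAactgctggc
Cdc20: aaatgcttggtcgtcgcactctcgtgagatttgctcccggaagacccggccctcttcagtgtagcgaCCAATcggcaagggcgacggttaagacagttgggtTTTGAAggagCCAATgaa
Ube2c: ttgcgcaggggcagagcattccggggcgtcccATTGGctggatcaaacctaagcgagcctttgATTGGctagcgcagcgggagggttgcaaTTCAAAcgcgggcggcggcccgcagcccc
Kif11: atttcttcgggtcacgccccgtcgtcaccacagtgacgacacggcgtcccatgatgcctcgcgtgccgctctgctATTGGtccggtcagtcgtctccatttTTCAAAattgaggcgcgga
Espl1: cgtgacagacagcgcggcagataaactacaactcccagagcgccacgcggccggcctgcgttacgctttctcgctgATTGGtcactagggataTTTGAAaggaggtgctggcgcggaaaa
Ncapg: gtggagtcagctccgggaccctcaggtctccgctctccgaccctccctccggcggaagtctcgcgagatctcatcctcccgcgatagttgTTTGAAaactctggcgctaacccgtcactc
Mki67: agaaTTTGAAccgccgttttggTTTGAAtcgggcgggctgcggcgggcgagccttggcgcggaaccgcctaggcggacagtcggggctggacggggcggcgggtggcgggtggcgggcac
Bub3: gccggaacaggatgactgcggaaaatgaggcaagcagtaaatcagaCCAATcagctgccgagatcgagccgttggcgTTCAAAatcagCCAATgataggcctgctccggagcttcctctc
These windows lie at chr10:69352913-69353032 (minus strand) for Cdk1, chr4:118437344-118437463 (minus strand) for Cdc20, chr2:164769809-164769928 (plus strand) for Ube2c and chr19:37376262-37376381 (plus strand) for Kif11. Those of Espl1, Ncapg, Mki67 and Bub3 lie at chr15:102296173-102296292 (plus strand), chr5:45669805-45669924 (plus strand), chr7:135716380-135716499 (minus strand) and chr7:131560250-131560369 (plus strand). Over all 51 windows, 36 of the 47 CHR matches began within 50 bases of the start and their median position was -5. CCAAT matches lay farther upstream, with a median of -68, and 42 of 79 began between -120 and -21. The median slope was -0.38 both for the 35 tested members with a CHR match and for the 15 without one, the steepest member (Ttk) and the shallowest (Bub3) being both among those with one.

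**Figure D2:**
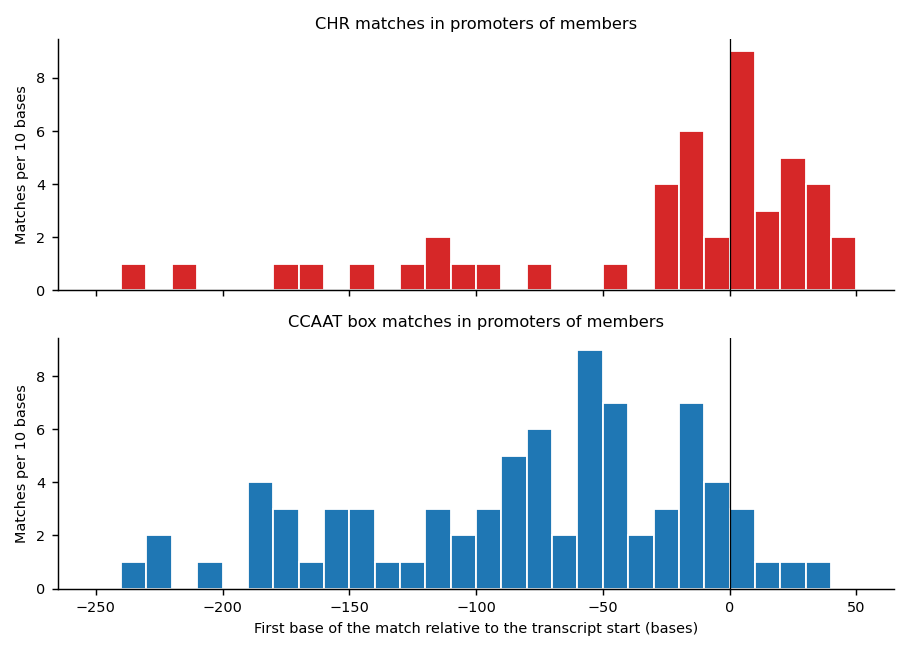
Position of CHR matches (top, 47 matches) and CCAAT box matches (bottom, 79 matches), each in 36 of the 51 member promoters, in bins of 10 bases from the transcript start at the vertical line. CHR matches gather around the start (median -5) and CCAAT matches upstream of it (median -68).

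Kinases, cyclins and a phosphatase of entry into mitosis fell in all 8 cases, with slopes between -0.46 and -0.33. Plk1, the polo kinase of centrosome maturation and mitotic entry, read 9.58 at E11, 9.31 at E12, 8.27 at E13, 8.15 at E14, 7.49 at E15, 7.39 at E16, 6.70 at E17, 6.38 at E18 and 5.81 at P0. It fell at every step, with a slope of -0.46 ± 0.027 (standard error, n = 9 arrays; adjusted p = 4.99e-06), and was 13.6-fold lower at P0 than at E11. At the other end of the group stood Cdk1, the kinase at the centre of mitotic entry, which read 11.85 at E11, 10.96 at E12, 10.64 at E13, 10.49 at E14, 10.22 at E15, 9.95 at E16, 9.62 at E17, 9.41 at E18 and 8.77 at P0. Cdk1 also fell at each step (slope -0.33 ± 0.026, adjusted p = 1.21e-05). Aurka, the Aurora kinase of the spindle poles, had a slope of -0.46 ± 0.024, and Cdc25c, a phosphatase that activates Cdk1, had -0.45 ± 0.040. Melk, a kinase abundant in neural progenitors, had a slope of -0.38 ± 0.032 and Ccnb2, a B-type cyclin, of -0.36 ± 0.032. Ccna2, the cyclin A of S phase and mitotic entry (-0.33 ± 0.022), and Plk4, the kinase of centriole duplication (-0.33 ± 0.022), lay close to Cdk1. A dimmer probe set of Ccna2 had a steeper slope, -0.46 ± 0.033, and those of Plk4 had -0.30 ± 0.031 and -0.30 ± 0.033.

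The spindle checkpoint genes spanned the whole range of slopes found among the members. Ttk, also called Mps1, the kinase that starts checkpoint signalling at the kinetochore, read 9.99 at E11, 8.51 at E12, 8.04 at E13, 8.02 at E14, 7.45 at E15, 7.39 at E16, 6.89 at E17, 5.98 at E18 and 5.35 at P0. The largest of its steps was the first, no later age returned to an earlier level, and its slope was the steepest of all 59 (-0.48 ± 0.044, adjusted p = 2.90e-05). Bub3, a WD-repeat protein that brings Bub1 and Bub1b to the kinetochore, read 13.05 at E11, 12.65 at E12, 12.51 at E13, 12.34 at E14, 12.15 at E15, 12.18 at E16, 11.80 at E17, 11.85 at E18 and 11.66 at P0. It stayed bright on every array and had the shallowest slope of all (-0.16 ± 0.016, adjusted p = 5.86e-05). For Bub3, 2 further probe sets passed the filter, with slopes of -0.09 ± 0.030 and -0.20 ± 0.053. Its partners Bub1b, also called BubR1 (-0.47 ± 0.027), and Bub1, a checkpoint kinase (-0.45 ± 0.039), had slopes close to that of Ttk. Mad2l1, the Mad2 protein that captures Cdc20, lay between these and Bub3 (-0.28 ± 0.029).

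Genes of the Ndc80 complex, which binds the kinetochore to microtubules, and of centromere proteins fell in all 10 cases. Cenpe, a kinesin that carries chromosomes to the spindle equator, read 10.97 at E11, 10.09 at E12, 9.41 at E13, 8.95 at E14, 8.78 at E15, 8.61 at E16, 8.13 at E17, 7.17 at E18 and 6.77 at P0. It had the steepest slope of this group (-0.47 ± 0.033, adjusted p = 6.66e-06). Nuf2, a subunit of the Ndc80 complex, read 8.84 at E11, 8.16 at E12, 7.53 at E13, 7.41 at E14, 6.88 at E15, 7.06 at E16, 6.61 at E17, 6.51 at E18 and 6.27 at P0. Nuf2 lost most of its level before E15, differed less between neighbouring ages after that, and had the shallowest slope of the group (-0.29 ± 0.034, adjusted p = 0.000124). The other subunits of its complex had slopes of -0.45 ± 0.040 (Ndc80), -0.35 ± 0.027 (Spc24) and -0.35 ± 0.023 (Spc25). Cenpa, the histone variant that marks the centromere, had a slope of -0.41 ± 0.024, and Cenpf, a large protein of the outer kinetochore, of -0.40 ± 0.031. Of the inner kinetochore proteins, Cenpi had -0.39 ± 0.031, Cenph -0.35 ± 0.043 and Cenpk -0.31 ± 0.040.

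The chromosomal passenger complex, which corrects wrong attachments and later guides cytokinesis, fell in all 4 of its genes. Its kinase Aurkb read 10.35 at E11, 10.34 at E12, 9.31 at E13, 9.19 at E14, 8.52 at E15, 8.49 at E16, 8.03 at E17, 7.41 at E18 and 6.93 at P0. The levels at E11 and E12 were nearly the same, and each later array was lower than the one before, for a slope of -0.43 ± 0.027 (adjusted p = 5.57e-06). Incenp, the scaffold of the complex, read 12.53 at E11, 12.29 at E12, 11.50 at E13, 11.45 at E14, 11.12 at E15, 11.03 at E16, 10.42 at E17, 10.21 at E18 and 10.01 at P0. Its slope was the shallowest of the 4 (-0.31 ± 0.022, adjusted p = 6.23e-06). Birc5 (survivin, -0.41 ± 0.030) and Cdca8 (borealin, -0.36 ± 0.020), which place the complex on chromosomes, lay between them.

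Of the 10 kinesins 9 were tested and 9 fell. Kif20b, a kinesin of late mitosis and cytokinesis, read 8.04 at E11, 7.50 at E12, 6.47 at E13, 5.91 at E14, 5.64 at E15, 5.54 at E16, 5.33 at E17, 4.70 at E18 and 4.53 at P0. Most of its decline came before E15, its readings at E18 and P0 lay under the filter level, and its slope was the steepest of the group (-0.42 ± 0.043, adjusted p = 5.57e-05). Kif22, a chromosome-arm motor, read 11.17 at E11, 11.19 at E12, 10.50 at E13, 10.51 at E14, 9.99 at E15, 9.96 at E16, 9.64 at E17, 9.18 at E18 and 9.0 at P0. It was about equal at E11 and E12 and had the shallowest slope (-0.28 ± 0.021, adjusted p = 9.43e-06). Further Kif22 probe sets, of lower level, had slopes of -0.41 ± 0.026 and -0.49 ± 0.031, so this rank holds for the brightest probe set only. Kif18a, which dampens chromosome oscillations (-0.41 ± 0.035), Kif20a, a motor of the central spindle (-0.39 ± 0.027), Kif4, a chromokinesin (-0.39 ± 0.032), and Kif2c, a microtubule depolymerase (-0.39 ± 0.022), had slopes close to that of Kif20b. Kif11, the motor that separates the spindle poles, had a slope of -0.38 ± 0.029 and Kif23, of the centralspindlin complex, of -0.31 ± 0.031. Kifc1, a minus-end motor, had the slope of widest error in this group (-0.38 ± 0.060), and its readings were under log2 5 at E14 and from E16 on.

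Spindle assembly and cytokinesis genes fell in all 8 cases. Aspm, a spindle pole protein of neural progenitors whose human gene is mutated in microcephaly, read 11.58 at E11, 10.93 at E12, 10.14 at E13, 10.22 at E14, 9.44 at E15, 9.50 at E16, 9.19 at E17, 8.57 at E18 and 7.73 at P0. It was the steepest of the 4 spindle assembly genes (-0.42 ± 0.033, adjusted p = 1.21e-05). Nusap1, which bundles spindle microtubules, read 11.40 at E11, 10.78 at E12, 10.35 at E13, 10.23 at E14, 9.73 at E15, 9.73 at E16, 9.29 at E17, 8.64 at E18 and 8.50 at P0. Its slope was the shallowest of these 4 (-0.34 ± 0.023, adjusted p = 6.21e-06), with Hmmr, a microtubule-binding protein (-0.41 ± 0.030), and Tpx2, the activator of Aurora A (-0.37 ± 0.023), in between. The 4 cytokinesis genes had the shallowest median slope of the roles, -0.29. Among them Ect2, the exchange factor that activates RhoA at the cleavage furrow, read 11.18 at E11, 10.66 at E12, 9.94 at E13, 10.18 at E14, 9.30 at E15, 9.67 at E16, 9.26 at E17, 8.68 at E18 and 8.04 at P0. It was the steepest of the 4 (-0.34 ± 0.035, adjusted p = 5.86e-05). Anln, the furrow protein anillin, read 10.79 at E11, 9.87 at E12, 9.22 at E13, 9.36 at E14, 9.0 at E15, 9.18 at E16, 9.11 at E17, 8.72 at E18 and 7.80 at P0. Anln moved little from E13 to E17, and its slope was -0.26 ± 0.044 (adjusted p = 0.000979). Prc1, which bundles the central spindle, had a slope of -0.31 ± 0.028 and Racgap1, the partner of Kif23, of -0.27 ± 0.031.

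Condensin and chromosome structure genes fell in all 8 cases. Ncapg, a regulatory subunit of condensin I, read 9.82 at E11, 8.79 at E12, 8.35 at E13, 7.98 at E14, 7.68 at E15, 7.54 at E16, 6.37 at E17, 6.50 at E18 and 5.80 at P0. It had the steepest slope of the group (-0.46 ± 0.035, adjusted p = 9.79e-06). Smc2, a core ATPase of both condensins, read 12.87 at E11, 12.29 at E12, 12.00 at E13, 12.21 at E14, 11.50 at E15, 11.69 at E16, 11.59 at E17, 10.19 at E18 and 10.72 at P0. Its lowest array was E18, not P0, and its slope was the shallowest of the group (-0.27 ± 0.041, adjusted p = 0.000527). The other core ATPase Smc4 had a slope of -0.32 ± 0.027, and the condensin I subunits Ncapd2 and Ncaph had -0.39 ± 0.033 and -0.38 ± 0.026. Top2a, the topoisomerase that untangles sister chromatids, had a slope of -0.35 ± 0.024. Cdca2, which recruits a phosphatase to chromatin at mitotic exit, had -0.45 ± 0.032, and Mki67, the coat protein of mitotic chromosomes and a common marker of cycling cells, -0.32 ± 0.021.

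Genes of cohesion and anaphase fell in all 7 cases. Sgo1 (shugoshin, listed as Sgol1), which protects centromeric cohesin, read 9.52 at E11, 8.61 at E12, 7.99 at E13, 7.92 at E14, 7.23 at E15, 7.03 at E16, 6.60 at E17, 5.99 at E18 and 5.63 at P0. It had the steepest slope of the group (-0.45 ± 0.028, adjusted p = 5.33e-06). Pttg1, the securin that holds separase inactive, read 13.88 at E11, 13.58 at E12, 11.69 at E13, 12.59 at E14, 12.77 at E15, 12.43 at E16, 11.78 at E17, 11.26 at E18 and 11.78 at P0. It was low at E13, higher again at E14 and E15 and lowest at E18, with the shallowest slope of the group (-0.26 ± 0.063, adjusted p = 0.00775). That call was lost when the E11 array was left out (adjusted p = 0.0513), under an exact rank correlation (adjusted p = 0.115) and over E13 to P0 (adjusted p = 0.292). The 2 other Pttg1 probe sets had slopes of -0.33 ± 0.036 and -0.57 ± 0.048. Cdca3, an F-box protein that acts at mitotic entry, read 10.27 at E11, 9.81 at E12, 8.68 at E13, 8.95 at E14, 8.24 at E15, 7.34 at E16, 7.53 at E17, 7.93 at E18 and 7.70 at P0. Its lowest value was the one at E16, and its call (-0.33 ± 0.057, adjusted p = 0.00115) was lost over E13 to P0 (adjusted p = 0.0589). Ube2c, the ubiquitin-conjugating enzyme of the anaphase-promoting complex (-0.42 ± 0.025), Cdca5, the cohesin stabiliser sororin (-0.43 ± 0.026), the separase Espl1 (-0.34 ± 0.030) and Cdc20 (-0.33 ± 0.026) completed the group.

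**Figure D3:**
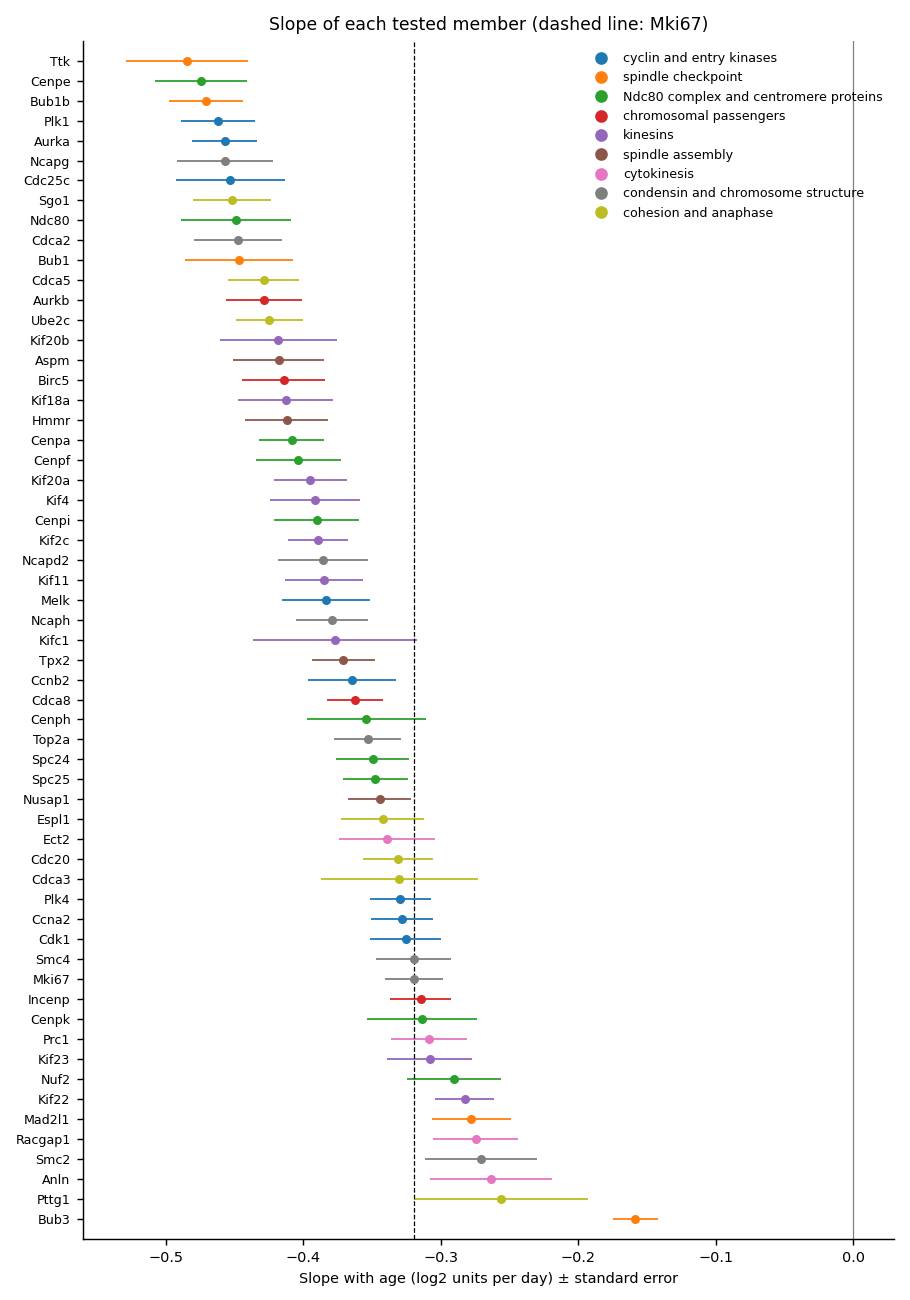
Slope with age of each of the 59 tested members (points) with its standard error (bars), in log2 units per day, ordered from the steepest fall, Ttk (-0.48), to the shallowest, Bub3 (-0.16), and coloured by role. The dashed line marks Mki67 (-0.32), and no bar reaches 0.

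The fall was spread over the whole course. In a line with a bend at E15, 57 of 59 members fell from E11 to E15 and 0 rose (13% and 20.3% of all genes tested), and Smc2 and Pttg1 did not pass. From E15 to P0, 46 of 59 fell and 0 rose (2.04% and 1.76% of all genes tested), and all 59 late slopes were negative. The median slope of the members was -0.43 before E15 and -0.33 after it, and 48 of 59 had the shallower slope after E15. Without the E11 array both medians were -0.35. No member's late slope differed from its early one in limma at the threshold (lowest adjusted p = 0.102, for Cdca5). Among all genes tested, the late slope was called below the early one for 4.92% and above it for 0.902%. The squared term of age passed for 0 members as well (lowest adjusted p = 0.0608, for Cdca3; 5.52% of all genes tested passed below 0 and 1.33% above). Cdca3 had the largest contrast, with slopes of -0.58 ± 0.092 before and -0.08 ± 0.092 after E15, while Bub1 had -0.39 ± 0.085 and -0.51 ± 0.085. The late count moved with the last array and with the place of the bend. Without the P0 array 1 member passed (0.138% of all genes tested did), with 46 below an unadjusted p of 0.05 and a median late slope of -0.30. With the bend at E16 again 1 passed (0.0828% of all genes), with 50 below an unadjusted p of 0.05 and a median late slope of -0.36. With the bend at E14, 55 members passed (5.96% of all genes). Leaving out E14 gave 31 members (0.976% of all genes), leaving out E15 gave 30 (0.994%) and leaving out E18 gave 24 (0.736%).

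**Figure D4:**
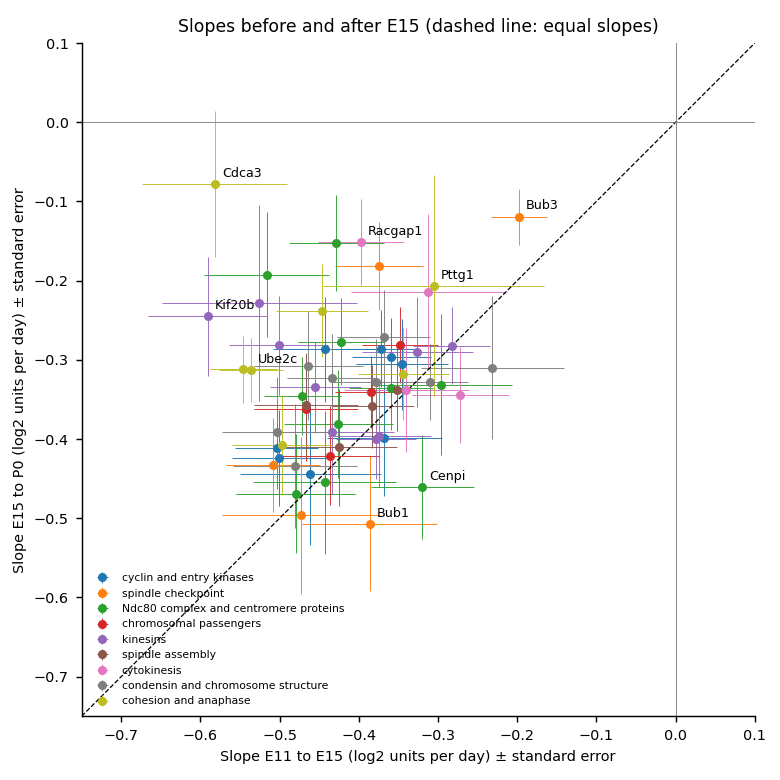
Slope from E15 to P0 against slope from E11 to E15 for the 59 tested members, in log2 units per day with standard errors, coloured by role. Every point lies below 0 on both axes, and 48 of 59 lie above the dashed line of equal slopes.

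Between consecutive ages most members read lower at each step. The median difference over the 59 members was -0.64 at E12 minus E11 (57 of 59 lower, against 54.8% of all genes) and -0.65 at E13 minus E12 (59 of 59, against 42.5%). It was -0.12 at E14 minus E13 (44 of 59, against 61% of all genes) and -0.50 at E15 minus E14 (57 of 59, against 38%). The next differences were -0.09 at E16 (42 of 59, against 44.8% of all genes) and -0.43 at E17 (54 of 59, against 63.9%). The last were -0.47 at E18 (54 of 59, against 50.3%) and -0.36 at P0 (55 of 59, against 44.5%). The median difference over all genes tested stayed between -0.10 and 0.10 at every step. Around the fitted lines, 58 of 59 members lay below their line at E13 (median departure -0.28), and 55 lay above it at E11 (0.26) and 47 at E16 (0.15). The shares of all genes above their line were 54.5% at E13, 54.0% at E11 and 66.6% at E16. The level midway between the E11 and P0 readings was first crossed between day 12.4 (Pttg1) and day 16.1 (Bub1), with a median of day 14.5.

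Set against Mki67 on the same arrays, 27 of the 58 other tested members fell more steeply, 1 less steeply and 30 did not pass. Of all genes tested, 0.948% were called as falling more steeply than Mki67 and 95.1% were called as having a slope above that of Mki67. The members that fell faster included Ttk, with a difference in slope of -0.17 ± 0.037 (adjusted p = 0.000933), Cenpe at -0.16 ± 0.027 (adjusted p = 0.000133), Bub1b at -0.15 ± 0.028 (adjusted p = 0.000209) and Plk1 at -0.14 ± 0.031 (adjusted p = 0.000691). Bub3 was the member that fell less, at 0.16 ± 0.024 (adjusted p = 2.78e-05). Among the roles, steeper slopes than that of Mki67 were called for 5 of 9 kinesins, 4 of 8 cyclin and entry kinases, 4 of 10 Ndc80 and centromere genes, 3 of 5 checkpoint genes and 0 of 4 cytokinesis genes. Cdk1, with a difference of -0.01 ± 0.028 (adjusted p = 0.826), and Smc4, whose slope was that of Mki67 to the printed digits, did not pass. The count of 27 fell to 17 without the E11 array, to 9 from E13 to P0 alone and to 15 with Top2a in place of Mki67, where 6 were shallower. Each difference compares the brightest probe set of a gene with the only one of Mki67, whose mean level was 11.88. Dimmer probe sets of a gene could be steeper (Ccna2, -0.46 beside -0.33) or shallower (Plk4, -0.30 beside -0.33). The part of the probe set in these differences was not tested.

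Other genes of mitosis mostly fell too. A further list of kinetochore, spindle, cohesin and mitotic control genes had 69 tested, with a median slope of -0.29. Of these, 62 fell and 0 rose, against 21.9% and 25.2% of all genes tested. Spag5, a spindle protein (-0.48 ± 0.028), Kntc1, the Rod subunit of the kinetochore's Rod complex (-0.46 ± 0.031), and Knl1, the scaffold that binds Bub1 and Bub3 (-0.43 ± 0.060), were steep. Cohesin subunits fell less or did not pass, with -0.12 ± 0.025 for Smc3, -0.11 ± 0.017 for Smc1a and -0.05 ± 0.020 for Rad21 (adjusted p = 0.0878). Cohesin also holds chromatin loops in cells that do not divide. Zwint, a kinetochore protein that in rat also binds a synaptic protein, read 12.35 at E11, 12.26 at E12, 12.53 at E13, 12.40 at E14, 12.73 at E15, 12.77 at E16, 12.37 at E17, 12.54 at E18 and 12.92 at P0. Its levels stayed within a narrow band, with P0 the highest, and its slope of 0.05 ± 0.022 did not pass (adjusted p = 0.0692). Stmn1, a tubulin-binding protein of dividing cells and of young neurons, had 0.03 ± 0.013 (adjusted p = 0.0934).

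The anaphase-promoting complex itself, whose partners Cdc20 and Ube2c are members, had shallower slopes. Among 16 genes of the complex and its cofactors, 8 fell and 0 rose (21.9% and 25.2% of all genes did). The median slope of the 16 was -0.056, and 15 slopes were called above that of Mki67, as 95.1% of all were. The count of 8 became 4 without the E11 array, 4 without probe sets that may match several transcripts and 3 over E13 to P0. The scaffold Anapc1 had -0.02 ± 0.020 (adjusted p = 0.540) and the catalytic subunit Anapc2 -0.08 ± 0.022. Fzr1, the Cdh1 activator used in G1 and by neurons, had -0.05 ± 0.031 (adjusted p = 0.206) and read 8.04 at P0 against 8.16 at E11. Fbxo5, the Emi1 inhibitor of S and G2 phase, fell by 0.34 per day (8.19 at P0 against 10.81 at E11). Against Mki67 the slope of Fzr1 differed by 0.27 ± 0.042 (adjusted p = 4.23e-05), whereas that of Cdc20 differed by -0.01 ± 0.024 (adjusted p = 0.640).

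Transcription factors of cell division mostly fell, and their action on the member promoters was not tested. Mybl2 (B-Myb) read 7.0 at E11, 6.28 at E12, 5.83 at E13, 4.58 at E14, 4.74 at E15, 4.35 at E16, 4.33 at E17, 4.06 at E18 and 4.07 at P0 (slope -0.36 ± 0.056, adjusted p = 0.000580). Foxm1 read 6.98 at E11, 7.18 at E12, 5.65 at E13, 4.90 at E14, 4.69 at E15, 4.09 at E16, 4.15 at E17, 4.59 at E18 and 4.48 at P0 (slope -0.36 ± 0.076, adjusted p = 0.00338). Both were under log2 5 from E14 on, so their later course is near the floor of the array. The list held 20 tested factors, of which 15 fell and 1 rose (21.9% and 25.2% of all genes tested). The one that rose was Rbl2 (p130), the pocket protein of DREAM in resting cells, with 0.11 ± 0.028 (adjusted p = 0.0101) and 8.25 at P0 against 7.53 at E11. That 1 rise was not called in limma without probe sets that may match several transcripts, nor over E13 to P0. The falling count of 15 became 9 over E13 to P0. The NF-Y subunits had shallow slopes, with -0.09 ± 0.047 for Nfya (adjusted p = 0.131), -0.07 ± 0.026 for Nfyb (adjusted p = 0.0455) and -0.07 ± 0.024 for Nfyc (adjusted p = 0.0494).

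Genes that brake the cycle were split, with 3 rising, 3 falling and 8 not passing among 14, shares close to those of all genes tested (25.2% rising, 21.9% falling). Cdkn1a, the p21 inhibitor, read 7.55 at E11, 6.70 at E12, 7.63 at E13, 7.57 at E14, 9.04 at E15, 8.94 at E16, 8.75 at E17, 9.09 at E18 and 9.68 at P0 and rose (0.32 ± 0.053, adjusted p = 0.000869). Btg1 (0.16 ± 0.032) and Ccng1 (0.16 ± 0.027) also rose, while Gadd45g (-0.34 ± 0.041), Btg2 (-0.26 ± 0.069) and Gas1 (-0.31 ± 0.058) fell. Cdkn1b, the p27 inhibitor, had a slope of -0.01 ± 0.036 (adjusted p = 0.819).

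Genes of DNA replication, the nearest process of the cycle, also fell, in 45 of 48 tested, and 0 rose (21.9% and 25.2% of all genes tested). Their median slope was -0.26, beside -0.38 for the mitosis members, -0.29 for the other mitosis genes and 0.0020 for all genes tested. Mcm3, a subunit of the replicative helicase (-0.43 ± 0.023), and Mcm10 (-0.41 ± 0.038) were the steepest, and the origin subunits Orc3 (-0.06 ± 0.027), Orc4 (-0.08 ± 0.033) and Orc5 (-0.04 ± 0.027) did not pass. Against Mki67, 7 replication genes were called steeper and 23 shallower (0.948% and 95.1% of all genes tested), where the members had 27 and 1. The difference between these lists was not tested.

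**Figure D5:**
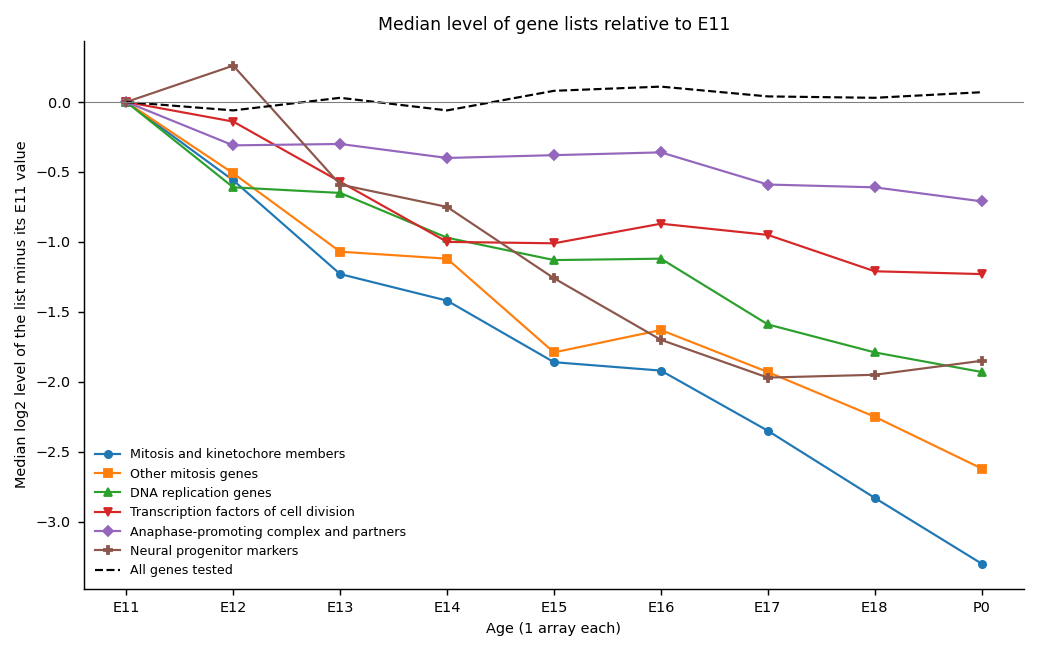
Median log2 level of each gene list at each age minus its median at E11, 1 array per age. The mitosis members have the lowest line at P0, with a median level of 7.60 there against 10.90 at E11, and the median of all genes tested stays close to 0.

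Progenitor and neuronal markers gave the setting in which the members fell. Among 18 progenitor genes 14 fell and 2 rose (21.9% and 25.2% of all genes tested). Those that rose were Fabp7 (0.11 ± 0.018) and Slc1a3 (0.33 ± 0.056), both expressed in radial glia and later in glia. Nes, the intermediate filament of progenitors, fell with a slope of -0.42 ± 0.031 and read 7.52 at P0 against 10.47 at E11. Sox2 had -0.11 ± 0.038 and Hes5, a Notch target of radial glia, -0.07 ± 0.022. Against the slope of Mki67, Sox2 differed by 0.21 ± 0.039 (adjusted p = 0.000199) and Hes5 by 0.25 ± 0.028 (adjusted p = 2.40e-06). Of the 18 progenitor genes, 9 were called above Mki67 in slope and 4 below it, against 95.1% and 0.948% of all genes tested. The median slope of the 18 was -0.25. Of the intermediate progenitor and proneural markers 8 of 9 fell (21.9% of all genes tested), with a median slope of -0.38, the same to 2 digits as that of the mitosis members. Among them Neurog2, a proneural factor, read 8.80 at P0 against 11.51 at E11, and Dll1, a Notch ligand, 8.02 at P0 against 10.83 at E11. Eomes (Tbr2), found in intermediate progenitors and in mitral cells, did not pass (0.04 ± 0.042, adjusted p = 0.416). The median of 13 neuron markers was 12.10 at P0 against 10.12 at E11. Of 13 bulb neuron markers, 10 rose, 1 fell and 2 did not pass (25.2% of all genes tested rose and 21.9% fell). Their slopes ran from -0.19 to 0.87. All 13 read log2 5 or more at P0, against 12 at E11. Tbx21, the factor of mitral and tufted cells, was the one below that level at E11 (9.28 at P0 against 2.40 at E11).

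Other cells on the arrays also changed with age. The summed linear level of 12 red cell markers was 79300 at E11, 54300 at E12, 33900 at E13, 23600 at E14, 3210 at E15, 595 at E16, 489 at E17, 471 at E18 and 230 at P0. Of the 12, 7 read log2 5 or more at E11 and 2 at P0, and the red cell factor Gata1 read under 3 on all arrays. Over E13 to P0, 57 of the 59 members fell, and 1219 of all genes did. The red cell sum itself dropped from 33900 to 230 over these ages, so this span does not set the members apart from red cells. The median of meninges and mesenchyme markers was 9.26 at P0 against 6.95 at E11, and that of microglia 6.92 at P0 against 4.96 at E11. Ensheathing glia markers had a median of 8.39 at P0 against 3.46 at E11, and 7 of 7 tested rose (25.2% of all genes tested). The part of red cells and of these other cells in the fall of the members was not tested. RNA quality, as the 3′ minus 5′ difference of actin, lay between 1.48 and 1.90 log2 units on all arrays. That of Gapdh was 1.55 at E11, 1.77 at E12, 1.67 at E13, 2.12 at E14, 1.90 at E15, 1.92 at E16, 2.07 at E17, 2.04 at E18 and 1.87 at P0, higher from E14 on than before. The part of these differences in the fall of the members was not tested.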

How the data were processed

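The deposited values are log2 expression levels per probe set on 9 arrays (45101 probe sets), made by the authors with GCRMA, per the submitters' processing notes. The range of the values shows the log2 scale; a GCRMA version is not given in the sources used here. Of the probe sets, 34958 carried 1 gene symbol in the platform annotation, 932 several and 9211 none. Probe sets at log2 5 or more on at least 2 arrays were kept, and the one of highest mean per gene was used (10864 genes). Slopes were fitted with limma 3.58.1 in R 4.3.3, with E11 to E18 as days 11 to 18 and P0 as day 19, leaving 7 residual degrees of freedom (median residual SD 0.24). Precision is limited by there being 9 arrays. Further fits used a bend at day 15, age squared, and the difference from Mki67. The procedure was tested on simulated data. Alternatives covered the filter, normalization, readings under 5, the day of P0, the variance model, rank correlation, the Xist level, the probe set rule, and each array left out. All 60 members are named. In each role the member of steepest and the one of shallowest slope, and any member that did not pass, are given in full, and of other lists the largest slopes and those against the rest. Other genes named with a value (the full series of Cdca3, and Kntc1, Knl1, Smc3, Smc1a, Anapc1, Anapc2, Fzr1, the NF-Y subunits, Cdkn1b, Nes, Sox2, Hes5, Neurog2, Dll1, Eomes, Tbx21 and Gata1), the promoter motifs and the 8 promoters shown were chosen after values were seen. The members and lists were chosen with earlier results of these data known. Of the further mitosis list 3 genes were not analysed here.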

Additional observations from a re-analysis of the deposited data

How the results depend on the processing

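Every member that could be tested kept a negative slope in each of the 22 alternatives of the age fit, and 1279 of 1284 refitted slopes kept their call. The count of falling members was 44 of 45 without probe sets that may match several transcripts, where Cenpa did not pass (slope -0.10, adjusted p = 0.572), 57 from E13 to P0, and 58 to 59 with an array left out. With the Xist level in the fit it was 59. Xist, a transcript of female cells, read 13.42 at E11, 13.98 at E12, 13.96 at E15 and 13.80 at P0. On the other arrays it lay between 2.53 and 2.76. From E13 to P0, 1219 of all genes fell and 1525 rose. The count falling from E15 to P0 was 1 with the bend at day 16, 55 with it at day 14, and ranged from 1 to 49 with an array left out, and the cause was not tested. The late slope differed from the early one for 2 members with values under 5 set to 5 and for 2 with P0 at day 20. The squared term passed for 2 and 3 members under these settings and for 0 to 1 with an array left out. Steeper slopes than that of Mki67 numbered 17 to 28 with an array left out, 9 from E13 to P0 and 15 with Top2a in its place, both chosen after seeing the data. Shallower ones numbered 2 without a filter, 1 to 3 with an array left out, 3 from E13 to P0 and 6 against Top2a. No paired analysis was possible because each age had 1 array.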
